A study of Peromyscus polionotus with 11 samples.

Results

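Axons and dendrites keep their shape through microtubules, neurofilaments and the proteins that bind them, and 9 genes of this machinery were examined in 2 forebrain nuclei of the oldfield mouse (Peromyscus polionotus) under long and short days. They are Tubb3, Map2, Mapt, Stmn2, Stmn3, Nefl, Nefm, Nefh and Gap43. Taken for them were all probe sets whose only gene symbol in the platform annotation is among these names. All 9 genes were found, with 14 probe sets of the 20380 that carry a single symbol, and none was left out for low signal. The arrays carry house mouse probe sets, and values are linear intensities that the authors normalized between arrays and rounded to whole numbers. Micropunches of the medial preoptic area gave 3 long-day and 3 short-day samples, and those of the bed nucleus of the stria terminalis gave 3 long-day and 2 short-day samples. No genetic change or drug is named for any group, and the labels give no age, sex or hours of light. The design text calls the samples independent but does not say whether each came from 1 animal, so p-values measure the spread between these samples.

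Microtubules are polymers of alpha and beta tubulin that grow and shrink at their ends. Tau and MAP2 bind along them and stabilise them in axons and dendrites, whereas stathmins bind tubulin and favour shrinkage. Neurofilaments fill large axons and set their calibre, and GAP-43 is a membrane protein of growth cones and presynaptic terminals that marks axon growth and plasticity. The medial preoptic area controls sexual and parental behaviour, and the bed nucleus relays signals between amygdala and hypothalamus. The question was whether these genes differ between the nuclei and with day length.

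Every array had a median intensity of 19, which served as the mark for dim signal, and 51.1% of all values were at or below it. House mouse probes can bind oldfield mouse transcripts less well, by an unknown amount. Differences in level between probe sets were therefore not read as differences in transcript abundance. Levels served to pick the brightest probe set of each gene, to mark dim probe sets and to sum marker lists. Sample 6 of the short-day medial preoptic group stood apart on the first principal component (23.2% of the variance), at -31.2 against -6.63 to 25.4 for the other arrays, and results are given without it where it matters. Of 19 hypothalamic and preoptic markers 5 were higher in the medial preoptic area, 1 (the transcription factor Otp, log2 difference 0.52, bed nucleus minus medial preoptic area, adjusted p = 0.0487, limma) was higher in the bed nucleus, and 13 did not pass. Among the 5 was the neuropeptide Gal, at -0.65 (adjusted p = 0.00205, limma).

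Between the nuclei, Gap43 was lower in the bed nucleus, at 71.6% of its preoptic level. The other 13 probe sets did not pass, although 11 of them also lay lower in the bed nucleus. The closest were Nefl and Stmn3, at 75.2% and 77.4%. Of all 22626 probe sets tested, 1.03% passed in either direction and 0.566% were lower in the bed nucleus, against 1 of the 14. Across probe sets irrespective of the test, 49.9% lay lower in the bed nucleus, against 12 of the 14. In punches of whole tissue, fewer cells of a type and less RNA per cell cannot be told apart.

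Tubb3 encodes the beta tubulin isotype of neurons. Its probe set read 42, 34 and 61 in the long-day and 47, 44 and 46 in the short-day medial preoptic samples. In the bed nucleus it read 44, 69 and 41 in long days and 32 and 44 in short days. All groups overlapped, and long-day samples of both nuclei spread most. The difference between the nuclei was -0.06 ± 0.15 (SE, log2, adjusted p = 0.927, limma), with a 95% interval of -0.37 to 0.26.

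Map2, whose protein stabilises microtubules mainly in dendrites, has 2 probe sets that did not follow each other. The brighter one, 1421327_at, read 74, 65 and 81 in long-day and 84, 88 and 81 in short-day medial preoptic samples. It read 90, 83 and 67 in the long-day bed nucleus and 57 and 48 in the short-day bed nucleus. The short-day bed nucleus thus lay below every other array. The further one, 1421328_at, read 64, 58 and 60 and then 63, 65 and 47 in the preoptic samples. It read 47, 54 and 47 in the long-day and 66 and 53 in the short-day bed nucleus, so that here the long-day bed nucleus had the lowest mean. Between the nuclei the log2 differences were -0.28 ± 0.10 (adjusted p = 0.246, limma) and -0.13 ± 0.11, with neither past the threshold.

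Mapt encodes tau, the microtubule-binding protein of axons, and its groups overlapped for the brightest of its 3 probe sets. That probe set read 37, 42 and 32 and then 43, 51 and 34 in the preoptic samples, and 40, 39 and 30 and then 36 and 37 in the bed nucleus. The difference was -0.12 ± 0.12 (log2, 95% interval -0.36 to 0.13). The others ranged from 17 to 24 and from 13 to 20, around the array median, where 1 unit is 0.07 on the log2 scale. Their differences were 0.11 and 0.04, the only ones of the 14 above 0.

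Stmn2 and Stmn3 encode neuronal stathmins that bind tubulin in growing processes. Stmn2 read 346, 397 and 446 in long-day and 438, 432 and 361 in short-day medial preoptic samples. It read 307, 419 and 416 in the long-day and 317 and 302 in the short-day bed nucleus. Short-day bed nucleus samples lay below all medial preoptic samples, but the long-day samples of the nuclei overlapped. The difference between the nuclei was -0.23 ± 0.11 (log2, adjusted p = 0.409, limma). The dimmer Stmn2 probe set, at 19 to 28, gave -0.22 ± 0.10 (adjusted p = 0.366).

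Stmn3 read 600, 524 and 688 in long-day and 771, 678 and 608 in short-day medial preoptic samples, and 440, 637 and 575 and then 490 and 414 in the bed nucleus. The short-day samples of the nuclei were apart, and the long-day samples overlapped. The log2 difference was -0.37 ± 0.12 (95% interval -0.61 to -0.13, adjusted p = 0.153, limma). The further Stmn3 probe set, whose name ending marks a possible match to several transcripts, gave -0.15 ± 0.10 on readings of 62 to 91.

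The 3 neurofilament genes encode the light, medium and heavy subunits, of which the light subunit forms the core of the filament. Nefl read 767, 1132 and 972 in long-day and 1029, 1003 and 761 in short-day medial preoptic samples. In the bed nucleus it read 747, 751 and 757 in long days and 719 and 600 in short days. All 5 bed nucleus samples therefore lay below all 6 medial preoptic samples, with a gap of only a few units between 757 and 761. Such a separation with the bed nucleus lower was seen for 0.769% of all probe sets, and for Nefl and Gap43 among the 14. The log2 difference of Nefl was -0.41 ± 0.11 (95% interval -0.65 to -0.17, adjusted p = 0.104, limma). Without sample 6 of the short-day medial preoptic group it was -0.48 ± 0.11 and passed (adjusted p = 0.0395), and it passed also without long-day medial preoptic sample 1 (adjusted p = 0.0462).

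Nefm read 35, 29 and 39 and then 45, 34 and 50 in the medial preoptic area, and 26, 41 and 35 and then 31 and 30 in the bed nucleus. Nefh read 26, 29 and 29 and then 42, 33 and 32, against 20, 34 and 27 and then 29 and 29. In both genes the short-day medial preoptic group had the highest mean, and the long-day samples of the nuclei overlapped. The differences between the nuclei were -0.25 ± 0.13 for Nefm (adjusted p = 0.453, limma) and -0.19 ± 0.12 for Nefh (adjusted p = 0.590).

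Gap43 read 1172, 1393 and 1279 in long-day and 1497, 1376 and 1154 in short-day medial preoptic samples. It read 1024, 1009 and 1141 in the long-day bed nucleus and 797 and 860 in the short-day bed nucleus. The nuclei did not overlap, in long days, in short days or across both. The group means stepped down from 1342 ± 174 (SD, n = 3) in the short-day medial preoptic area and 1281 ± 111 (n = 3) in its long-day group to 1058 ± 72.3 (n = 3) in the long-day and 828.5 ± 44.5 (n = 2) in the short-day bed nucleus. The first pair overlapped, and each later step exceeded the larger SD of the groups it joins. The difference between the nuclei was -0.48 ± 0.10 (log2, 95% interval -0.69 to -0.28, adjusted p = 0.0200, limma). Without sample 6 of the short-day medial preoptic group it was -0.53 ± 0.10 (adjusted p = 0.00696). The call was lost when any 1 of 5 other arrays was left out: long-day medial preoptic sample 2 (adjusted p = 0.0704), short-day medial preoptic sample 4 (0.0574), long-day bed nucleus sample 1 (0.0581), and short-day bed nucleus samples 4 (0.107) and 5 (0.0728). The log2 difference stayed between -0.53 and -0.44 over all 11 such fits.

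**Figure D1:**
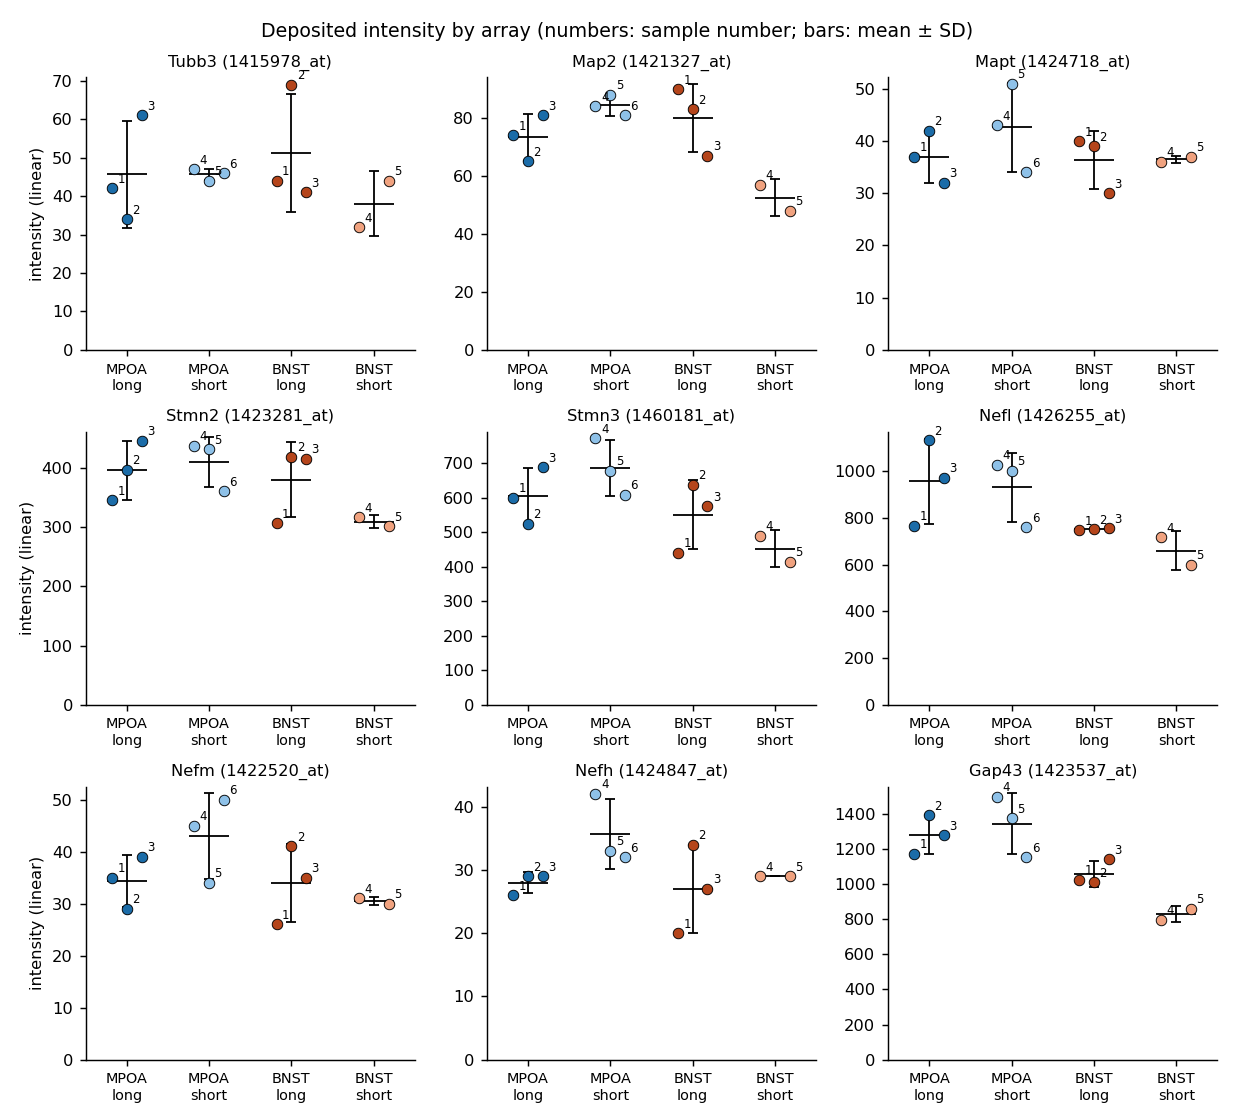
Deposited intensity (linear axis from 0) of the brightest probe set of each of the 9 genes on each of the 11 arrays, by nucleus (MPOA, medial preoptic area; BNST, bed nucleus of the stria terminalis) and day length; horizontal marks and bars are the group mean ± SD and small figures are the sample numbers. Gap43 and Nefl lie lower on all 5 bed nucleus arrays than on all 6 medial preoptic arrays, and Map2 is lowest on the short-day bed nucleus arrays.

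**Figure D2:**
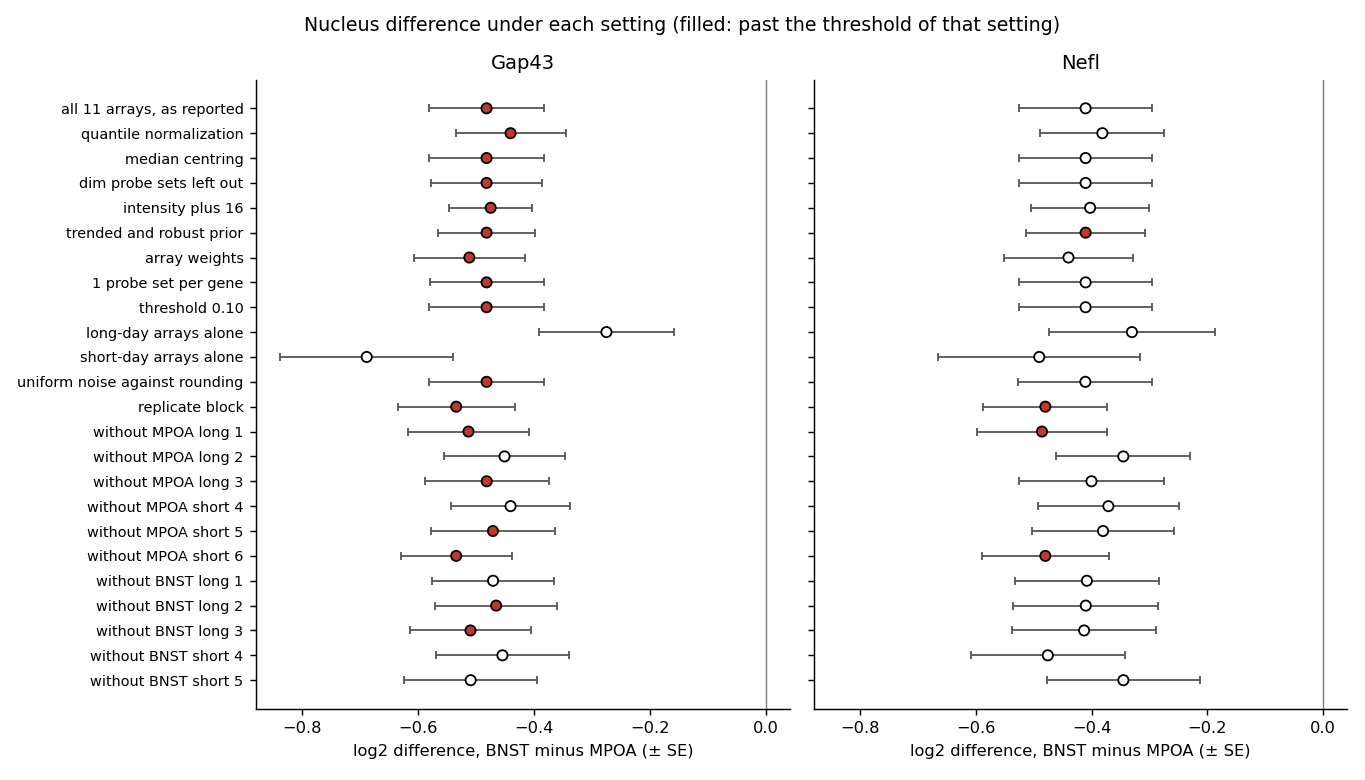
Log2 difference between the nuclei (bed nucleus minus medial preoptic area, ± SE) of Gap43 and Nefl with all arrays and under each alternative setting or left-out array; filled points passed the threshold of that setting. Median centring and the threshold of 0.10 return the same fit as all arrays, so neither could lose the Gap43 call. Gap43 stays below 0 throughout, at -0.69 to -0.27, and passes in 16 of 23 alternatives, whereas Nefl passes in 4 of 23.

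Taken per gene, with the brightest probe set of each, all 9 genes lay lower in the bed nucleus, with a median log2 difference of -0.25. Over all 12393 genes the median was 0.0036, and 48.9% lay lower. More of the 14 probe sets were without overlap on the short-day arrays. Absence of overlap is easier there, with 3 against 2 samples in place of 3 against 3. There 8 of the 14 probe sets were lower in the bed nucleus with no overlap, against 10.6% of all probe sets: 1 of Map2, both of Stmn2, 1 of Stmn3, and those of Nefl, Nefm, Nefh and Gap43. On the long-day arrays 3 of 14 were, against 5.50% of all: the dimmer Map2 probe set, Nefl and Gap43. A Mapt probe set was higher there without overlap, against 6.69% of all. Fitted within each day length, Gap43 differed by -0.27 ± 0.12 in long days (adjusted p = 0.425, limma) and by -0.69 ± 0.15 in short days (adjusted p = 0.361). The same values were -0.14 ± 0.16 and -0.60 ± 0.15 for Stmn3, and -0.03 ± 0.17 and -0.48 ± 0.18 for Nefm. No probe set of the 14 passed in either subset, and 2 and 0 of all probe sets did.

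**Figure D3:**
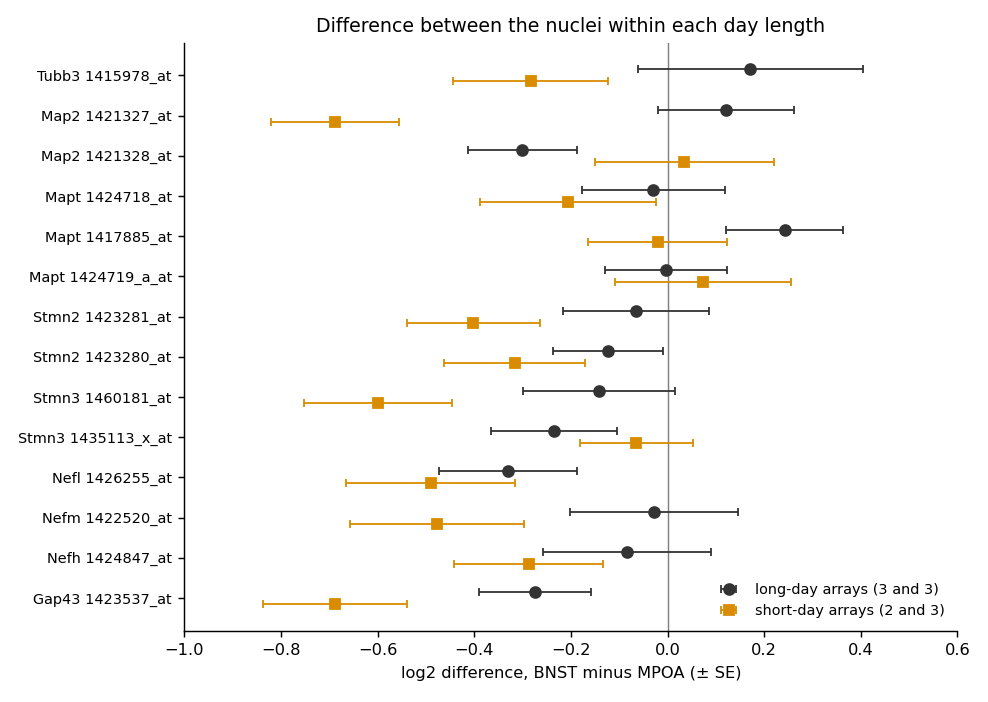
Log2 difference between the nuclei (bed nucleus minus medial preoptic area, ± SE) of each of the 14 probe sets, fitted on the long-day arrays alone (circles) and on the short-day arrays alone (squares). The short-day value lies lower than the long-day value for 11 of the 14 probe sets, and the exceptions are the dimmer probe sets of Map2 and Stmn3 and the dimmest of Mapt.

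An interaction term tests directly whether day length acted differently in the 2 nuclei. The short-day effect was lower in the bed nucleus for 11 of 14 probe sets, against 52.7% of all probe sets. None of the 14 and none of all probe sets passed with limma, and unadjusted p-values under 0.05 were found for 2 of the 14 and 8.34% of all. The interaction, as the bed nucleus effect minus the preoptic effect, was -0.81 ± 0.21 for the brighter Map2 probe set (95% interval -1.24 to -0.37, adjusted p = 0.450) and -0.41 ± 0.20 for Gap43 (-0.83 to -0.0014, adjusted p = 0.599).

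Day length within the bed nucleus gave no call among the 14, against 0.0442% of all probe sets. At an unadjusted p under 0.05 there were 2 of 14, against 12.7% of all. The largest difference was that of the brighter Map2 probe set, at 52.5 ± 6.36 (n = 2) in short and 80.0 ± 11.8 (n = 3) in long days, or -0.60 ± 0.16 on the log2 scale (95% interval -0.93 to -0.28, adjusted p = 0.116, limma). Medial preoptic sample 6 enters this comparison only through the shared spread. Without that sample the adjusted p was 0.0785 (limma), and 38 of all probe sets passed in place of 10. The other Map2 probe set lay in the opposite direction, at 0.26 ± 0.16 (adjusted p = 0.509). Gap43 was at -0.35 ± 0.15 (95% interval -0.66 to -0.04, adjusted p = 0.325), Tubb3 at -0.41 ± 0.22, Stmn2 at -0.28 ± 0.16 and Stmn3 at -0.27 ± 0.17. With single arrays left out, Tubb3 ranged from -0.64 (without short-day sample 5) to -0.18 (without long-day sample 2 or short-day sample 4), and Stmn3 from -0.43 (without long-day sample 1) to -0.15 (without short-day sample 5). Short-day samples lay below all long-day samples for Map2 (brighter probe set), Nefl and Gap43, which is 3 of 14 against 13.5% of all probe sets. The 95% interval of Nefl ran from -0.55 to 0.16 and that of Mapt (brightest probe set) from -0.35 to 0.39.

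In the medial preoptic area short and long days gave no call among the 14, or among all probe sets, with limma. An unadjusted p under 0.05 was found for 1 of 14 and 3.50% of all. That probe set was Nefh, at 35.7 ± 5.51 (n = 3) in short and 28.0 ± 1.73 (n = 3) in long days, or 0.34 ± 0.16 on the log2 scale (adjusted p = 1). It was also the only one of the 14 with all short-day above all long-day samples, against 2.64% of all probe sets. Nefm was at 0.32 ± 0.17 and Map2 (brighter probe set) at 0.21 ± 0.14. Gap43 was at 0.06 ± 0.13 (95% interval -0.21 to 0.34) and Nefl at -0.03 ± 0.15 (-0.35 to 0.29). Of the 3 short-day samples, sample 6 read lowest for the brightest probe sets of Map2, Mapt, Stmn2, Stmn3, Nefl, Nefh and Gap43, and highest for Nefm. Without it Gap43 was at 0.17 ± 0.14, Nefl at 0.10 ± 0.16, Nefh at 0.41 ± 0.18 and Mapt (brightest probe set) at 0.35 ± 0.16 in place of 0.19 ± 0.16, while Nefm was at 0.20 ± 0.18, again with no call.

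Averaged over both nuclei, the effect of day length lay between -0.20 (Map2, brighter probe set) and 0.24 (Nefh) on the log2 scale. None of the 14 passed with limma, against 0.0133% of all probe sets, and none had an unadjusted p under 0.05, against 9.02% of all. The smallest adjusted p was 0.577, for Nefh.

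**Figure D4:**
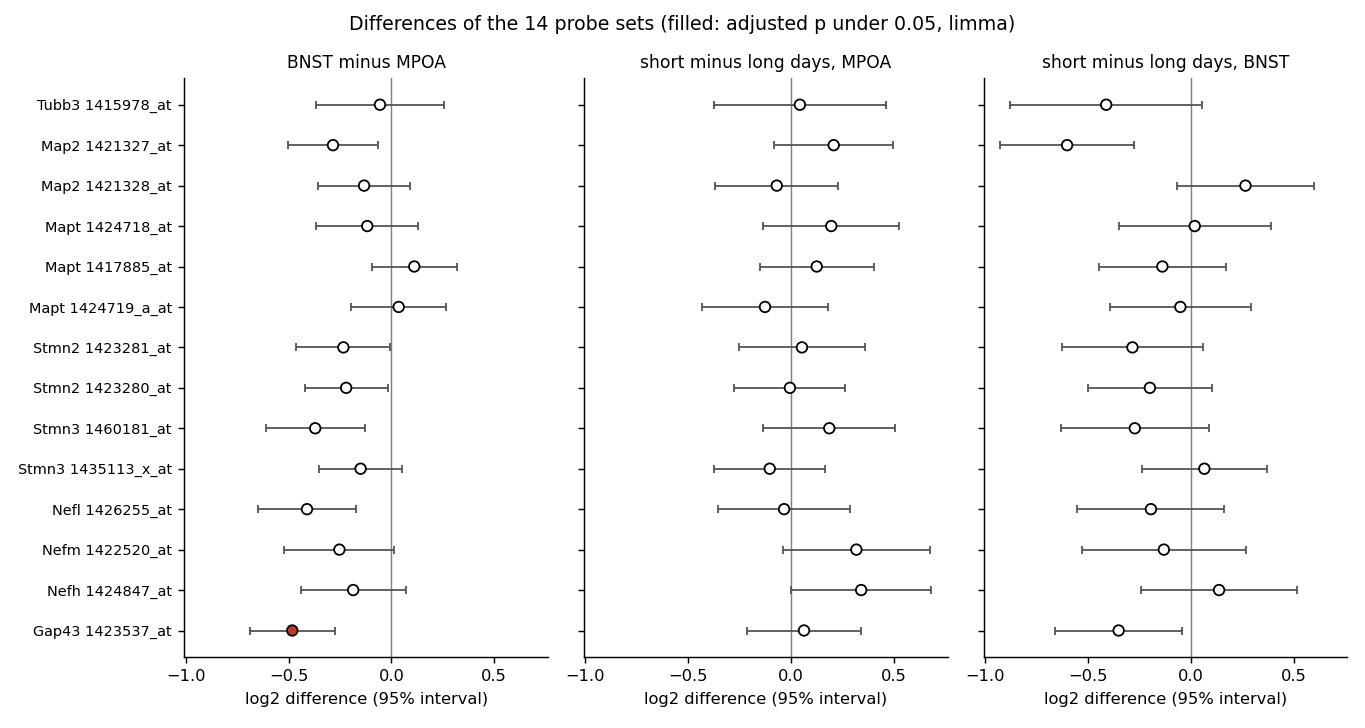
Log2 differences of the 14 probe sets with 95% intervals for the nuclei (bed nucleus, BNST, minus medial preoptic area, MPOA) and for short minus long days in each nucleus; filled points have an adjusted p under 0.05 (limma). Gap43 between the nuclei is the only filled point, and the Map2 probe sets lie on opposite sides of 0 for day length in the bed nucleus.

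Genes with related tasks were described by 7 lists of 116 genes, of which 103 were measured. With the brightest probe set of each, 1 of 103 passed between the nuclei, lower in the bed nucleus, and 0 passed higher, against 0.718% and 0.541% of all genes. The gene was L1cam, a cell adhesion molecule of growing axons. It read 59, 89 and 61 and then 58, 72 and 70 in the medial preoptic area, and 50, 39 and 38 and then 49 and 51 in the bed nucleus, with no overlap. Its log2 difference was -0.56 ± 0.12 (adjusted p = 0.0262, limma), and a dim further probe set gave -0.25 ± 0.13. None of the 103 passed in the other 4 comparisons.

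Of the tubulins and their folding cofactors, 12 of 15 lay lower in the bed nucleus, with a median log2 difference of -0.19, and none passed. Tubb4b, a widely expressed beta tubulin, was at -0.44 ± 0.14 (adjusted p = 0.162, limma), and its 5 dimmer probe sets lay between -0.23 and -0.12. Tubb4a, a brain beta tubulin, was at -0.34 ± 0.10 on readings under the array median (adjusted p = 0.135). In the growth cone and guidance list, to which L1cam belongs, 12 of 24 genes lay lower (median -0.0072).

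Microtubule-associated and severing proteins had 8 genes higher and 9 lower in the bed nucleus (median -0.0079). Among them Dclk1, a doublecortin-like kinase that binds microtubules, was at 0.37 ± 0.11 (adjusted p = 0.130, limma), while its 5 dimmer probe sets lay on both sides of 0, at -0.15 to 0.20. Map1b, a microtubule-binding protein of growing axons, was at -0.26 ± 0.11 (adjusted p = 0.343). Its dimmer probe sets gave -0.34 ± 0.11 and -0.14 ± 0.10. In the list of other stathmins and intermediate filaments 3 of 5 lay lower, including the neurofilament partner Ina at -0.11 ± 0.13 and peripherin, Prph, at -0.10 ± 0.10. Their dimmer probe sets gave -0.23 and -0.18 for Ina and -0.27 to 0.05 for Prph.

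Axonal transport motors had 7 genes higher and 8 lower. The dynactin subunit Dctn1 was at -0.39 ± 0.11 (adjusted p = 0.0995, limma), with -0.05 for a further probe set. The kinesin light chain Klc1 was at -0.10 ± 0.12, and its dimmer probe sets gave -0.34 (adjusted p = 0.0992) and 0.24. The membrane skeleton list had 4 higher and 5 lower, with the erythroid-type ankyrin Ank1 at -0.48 ± 0.13 (adjusted p = 0.0877) and the protein 4.1 family member Epb41l1 at 0.28 ± 0.14 (adjusted p = 0.434). The dimmer Ank1 probe sets were at -0.04 and 0.17, and those of Epb41l1 gave 0.34 and -0.12.

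Kinases and phosphatases that act on tau and neurofilaments had 11 genes higher and 7 lower. Their brightest probe sets gave no call. Of all 45 probe sets of this list 2 passed, against 1.03% of all probe sets tested. Both were further probe sets of protein phosphatase 2A subunits, in opposite directions, and in the other lists no further probe set passed. That of Ppp2r2a was higher in the bed nucleus, at 410 ± 38.3 (SD, n = 5) against 289 ± 37.7 (n = 6), or 0.51 ± 0.11 on the log2 scale (adjusted p = 0.0239, limma), with 0.23 and 0.09 for its other probe sets. That of Ppp2r1a was lower (-0.52 ± 0.12, adjusted p = 0.0406), at readings under the array median, while its brightest probe set was at 0.13 ± 0.15. Its other dim probe sets also lay lower, at -0.39 to -0.29, without passing. The names of all its dim probe sets mark a possible match to several transcripts.

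Markers of some of the cell types a punch can hold lay mostly to 1 side between the nuclei. For striatal neurons 10 of 10 measured genes lay higher in the bed nucleus, and 5 of them passed (median log2 difference 0.59). Their summed intensity was 2225 to 3112 in long-day and 1760 to 2340 in short-day medial preoptic samples, and 3214 to 3940 and 3846 to 4046 in the bed nucleus. Most of this sum came from Foxp1, at 1870 ± 440 (SD) in the medial preoptic area and 3154 ± 281 in the bed nucleus. Oligodendrocyte markers were higher in 8 of 8 genes with none past the threshold (median 0.32), at sums of 488 to 607 and 462 to 620 against 584 to 835 and 578 to 1017. Hypothalamic and preoptic markers lay lower in 17 of 19 genes, 5 of which passed, while 1 passed as higher (median -0.09). Their part in the Gap43 result was not tested.

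General neuronal markers did not all share the direction of the 9 genes between the nuclei: 8 of 12 lay higher in the bed nucleus and 4 lower (median 0.03). One of the lower ones, the syntaxin Stx1a, passed (-0.93 ± 0.16, adjusted p = 0.00514, limma). The name ending of its probe set marks a possible match to several transcripts. The other lower ones were Uchl1 (-0.26), Syp (-0.19) and Thy1 (-0.11), of which Uchl1 and Thy1 had mean readings under the array median. The 8 higher ones lay at 0.03 to 0.14, among them Snap25 (0.04), Vamp2 (0.05) and Rbfox3 (0.11). The summed intensity of all 12 was 2972 to 3712 and 3205 to 3597 in the long- and short-day medial preoptic area. In the bed nucleus it was 2905 to 3137 and 2640 to 2892. Within these sums Stx1a averaged 958 ± 296 (SD) in the medial preoptic area and 505 ± 107 in the bed nucleus. Snap25 averaged 776.5 and 794.6 and Vamp2 798 and 843, so the lower sums in the bed nucleus rest largely on Stx1a. For day length in the bed nucleus they lay lower in 9 of 12 genes (median -0.19), as 7 of the 9 genes did (median -0.27), and no gene of either list passed. Over all 12393 genes 55.2% lay lower in short days there, with a median of -0.028. Between the nuclei, astrocyte markers had 5 genes higher and 3 lower, microglial 4 and 4, vascular 5 and 3, and ependymal 5 and 1, with no call. At or under the array median in each group were 5 of 8 microglial, 2 of 8 astrocyte, 2 of 8 oligodendrocyte, 1 or 2 of 10 striatal and 3 of 12 general neuronal markers. So were 2 or 3 of 6 ependymal and 1 or 2 of 8 vascular markers. Of the 19 hypothalamic and preoptic markers, 5 were so in the medial preoptic groups and 7 in the bed nucleus groups. No probe set reads 0 in these files.

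For each of the 9 genes the 3 genes with the most similar pattern were found by Pearson correlation of log2 values over the 11 arrays, among 10297 or 10298 single-symbol probe sets brighter than the median. These are descriptions: the arrays share nucleus and day length, so the value after removal of the 4 group means is given as a second number. The genes were picked as the highest of many values over 11 arrays. The second number comes from the same arrays, so neither number is a test. For Gap43 they were Pafah1b3, a subunit of platelet-activating factor acetylhydrolase (0.96 and 0.83), Sarnp (0.96 and 0.80) and Fndc3a (0.96 and 0.81). For Stmn2 they were the beta tubulin Tubb4b (0.96 and 0.93), Dpcd (0.94 and 0.96) and Elavl4, a neuronal RNA-binding protein (0.92 and 0.86). Elavl4 also came first for Stmn3 (0.95 and 0.91), ahead of Snx12 (0.94 and 0.94) and Cpeb3 (0.94 and 0.92).

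Nefl followed Ndufs8, a subunit of respiratory complex I (0.95 and 0.94), Tnrc6a (0.94 and 0.87) and Flot1 (0.94 and 0.86). Map2 followed the chloride transporter Clcn3 (0.90 and 0.67), Ndufab1 (0.90 and 0.76) and Npdc1 (0.90 and 0.58), which are the lowest second numbers of any member. For Tubb3, Mapt, Nefm and Nefh the first genes were Cdh8 (0.91 and 0.92), Siva1 (0.90 and 0.92), Slc9a3r2 (0.92 and 0.90) and Txnl1 (0.91 and 0.88). None of the 9 genes was among the 3 most similar to another.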

How the data were processed

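RNA of 11 micropunch samples was hybridised to arrays with house mouse probe sets. Per the submitters' processing notes, the deposited intensity values were made with RMA 3.4, and no further step is named there. The values are linear whole numbers with the same median on every array. Of 22690 rows, 64 control probe sets were set aside and 22626 tested; 20380 carry 1 gene symbol in the platform annotation (12393 genes), 691 several and 1555 none. Symbols can be old, and only single-symbol probe sets are named.

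The log2 intensity, with no pseudocount, was fitted with 4 group means over all 11 arrays (lmFit and eBayes, limma 3.58.1, R 4.3.3; 7 residual and 12.9 prior degrees of freedom). Tests were two-sided and adjusted by Benjamini-Hochberg over all 22626 probe sets, at a threshold of 0.05, in 5 comparisons. Differences are log2 ± SE, and levels are mean intensity ± SD. Precision is limited by the number of arrays. The procedure was tested on simulated arrays.

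Named were all probe sets of the 9 genes; of each related list the genes past the threshold in any comparison, or, with none between the nuclei, the 2 with the smallest p there; and the 3 most similar genes of each member. Stx1a, Uchl1, Syp, Thy1, Snap25, Vamp2, Rbfox3, Foxp1, Gal and Otp are named from the marker lists, after their values were seen. Members and lists were chosen with earlier results of these data known. Sample numbers shared by the nuclei were not treated as pairs, since the labels do not say whether they mark the same animal. Deviations of same-numbered samples from their group means correlated at -0.02 to 0.12, which does not settle the question. The alternatives tried are other normalization, filters, priors, weights, subsets of arrays, a block on the sample number and each array left out.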

Additional observations from a re-analysis of the deposited data

How the results depend on the processing

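The 14 probe sets were refitted under 19 to 23 alternatives per comparison where they applied. Of the 14, the count past the threshold between the nuclei was 1 with all arrays. It was 2 with a trended and robust prior, 2 with the sample number as a replicate block, 0 on the long-day and 0 on the short-day arrays alone, and 0 to 2 with single arrays left out. In the other 4 comparisons it was 0 in every alternative. No call changed sign. Of 1496 refitted differences 47 changed sign, all of them in values that passed neither way. Over all probe sets, between the nuclei 233 passed, with 402 at a threshold of 0.10, 2 on long-day and 0 on short-day arrays alone, and 70 to 224 with single arrays left out. For day length in the bed nucleus 10 passed, with 6 after adding 16 to the intensity, 30 at a threshold of 0.10, 0 on its arrays alone and 0 to 38 with single arrays left out. In the medial preoptic area 0 passed, with 1 under array weights and 0 to 1 with single arrays left out. For the mean of both nuclei 3 passed, with 1 when dim probe sets were left out and 1 to 5 with single arrays left out, and for the difference between the effects 0, with 0 to 5. Leaving out a short-day bed nucleus array leaves 1 sample, assumed to vary like the other groups. Under the replicate block Gap43 was at -0.53 (adjusted p = 0.0175) and Nefl at -0.48 (adjusted p = 0.0475). The block leaves the unpaired preoptic sample 6 without weight here, and leaving out that sample alone gave the same 2 differences and also 2 calls. Same-numbered samples were the best match in 2 of 5 cases, which cannot decide the pairing with so few candidates per sample. The labels do not state it either, and the numbers were not taken as pairs in the main fit. Probe sets near the intensity of 19, such as the dimmer ones of Mapt and Stmn2, are limited by rounding and background.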
